A study of Mus musculus with 12 samples.

Results

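The genes described here are 9 members of the matrix protease system in muscle cells: the matrix metalloproteinase genes Mmp2 and Mmp14, the membrane or secreted metalloproteinase genes Adam12, Adamts1 and Adamts5, the plasminogen activator gene Plau, and the inhibitor genes Timp1, Timp2 and Timp3. They were chosen by symbol, with earlier results of these data known. Each had exactly 1 transcript cluster annotated to its symbol alone, so all 9 of 9 were measured, among 19938 genes in all. Clusters annotated to several symbols were left out of that count. No filter on low values was applied. RNA came from C2i-Myog cells, made from C2C12 mouse myoblasts by stably adding a doxycycline-driven copy of mouse Myog with a Flag tag. Myog encodes myogenin, a bHLH factor needed for myoblasts to become muscle. After growth in 10% FCS, every group spent 48 h in differentiation medium, which held 1% horse serum plus 10 µg/mL of insulin and as much transferrin.

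The 12 arrays formed 4 groups of 3. The groups were control (nothing added), Dox (0.2 µg/mL doxycycline), SB (10 µM SB203580, which blocks the p38α and p38β kinases) and SB+Dox (both agents). Every group carried the transgene, and no group received doxycycline without it, so the effects of doxycycline and of exogenous Myog cannot be told apart. SB203580 was the only inhibitor used, so loss of p38 activity and any other effect of the compound cannot be told apart either. The labels call the first group only a control, and its place at 48 h of differentiation comes from the treatment protocol given with every sample. Nothing in the labels says that replicates came from separate cultures, and the p-values therefore measure only a spread between samples that may be technical. The array is a bulk measurement, in which fewer cells of a type and less RNA per cell cannot be told apart.

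Muscle cells remodel the matrix around them when they migrate, align and fuse. Matrix metalloproteinases cut collagens and other matrix proteins and are made as inactive precursors, ADAM proteins shed membrane proteins, and ADAMTS proteins are secreted enzymes that cut proteoglycans and procollagens. Urokinase, the product of Plau, turns plasminogen into plasmin, which cuts fibrin and can activate other proteases. The TIMP proteins bind and block the metalloproteinases, and the membrane enzyme encoded by Mmp14 together with TIMP-2 activates the product of Mmp2. Doxycycline is itself known to inhibit matrix metalloproteinase enzymes. The arrays report RNA and say nothing of enzyme activity.

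Values are log2 expression values from RMA, a method that corrects, normalizes and summarizes the probes of a cluster. Levels of different genes are not compared, because probes differ in brightness. A gene was called at an adjusted p under 0.05 in limma, with Benjamini-Hochberg adjustment over 21789 clusters, and every p printed below is of that kind. Changes are log2 differences, given with a standard error (SE), between groups of 3 arrays. Array medians lay between 4.86 and 5.06, and replicates correlated across clusters at 0.989 to 0.996. SB replicate 3 stood apart from the other SB arrays on the second principal component (-8.47 against 20.26 and 11.74). The 10 markers of myoblasts and muscle were all above the median cluster, and the summed level of that list on the log2 scale lay at 13.75 to 14.11 in control, 12.93 to 13.42 in SB, 14.12 to 14.32 in Dox and 13.91 to 14.06 in SB+Dox. Linear values were summed for that level, so the brightest clusters weigh most. In SB against control 6 of the 10 were lower and 1, Myf5, was higher, beside 3.87% and 2.51% of all clusters. In SB+Dox against SB 5 were higher and 0 lower, beside 4.4% and 2.71% of all clusters. Myod1, Myf5 and Cdh15 changed there by -0.49, -0.34 and -0.17, none of them called. Muscle markers thus moved with the groups, though not all in 1 direction, and their part in the results below was not tested. The fibroblast, endothelial, macrophage and adipocyte markers had 0 of 7, 1 of 5, 0 of 5 and 1 of 5 genes above the median cluster, and 0 of these 22 markers were called by limma in SB against control or in SB+Dox against SB (2 in each at an unadjusted p under 0.05). Myog, the induced gene, measured 9.91 ± 0.26 (SD, n = 3) in control, 7.70 ± 0.68 in SB, 10.37 ± 0.05 in Dox and 8.33 ± 0.30 in SB+Dox. Its difference between Dox and control was 0.46 (adjusted p = 0.467) and between SB+Dox and SB 0.64 (adjusted p = 0.157), so the induction that the labels give was not called on this cluster, and whether its probes read the introduced copy was not tested.

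The 3 genes whose promoter sequence is shown here are the ones in the RefSeq table with the largest changes: Timp1 and Mmp14, which were lower with the inhibitor, and Adamts1, which was higher with doxycycline. The table held promoters of 5 of the 9 genes. The 150 bases before each start are given from RefSeq (GRCm38.p6), 5′ to 3′ on the strand of the gene, with capitals on any E-box (CANNTG, the family of sites that myogenic bHLH factors such as Myog bind), AP-1 site (TGANTCA), GC box (GGGCGG) or TATA box (TATAAA), searched on both strands.
Timp1, chrX:20870016-20870165, plus strand: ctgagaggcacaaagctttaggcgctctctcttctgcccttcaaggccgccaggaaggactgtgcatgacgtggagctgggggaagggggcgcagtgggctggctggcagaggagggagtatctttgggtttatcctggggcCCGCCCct
Mmp14, chr14:54431448-54431597, plus strand: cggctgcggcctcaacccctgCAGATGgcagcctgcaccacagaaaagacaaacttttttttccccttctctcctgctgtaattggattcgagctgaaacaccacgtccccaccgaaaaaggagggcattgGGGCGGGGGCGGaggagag
Adamts1, chr16:85803114-85803263, minus strand: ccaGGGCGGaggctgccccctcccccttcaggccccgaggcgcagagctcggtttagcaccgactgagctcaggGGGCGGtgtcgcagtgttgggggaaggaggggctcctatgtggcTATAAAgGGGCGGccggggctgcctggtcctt
The Mmp14 window held 1 E-box and 2 GC boxes, the Timp1 window 1 GC box, and the Adamts1 window 3 GC boxes and 1 TATA box. Windows of the same length before the starts of 27025 genes (32851 windows) held an E-box in 47.7%, a GC box in 28.6%, a TATA box in 7.57% and an AP-1 site in 4.24%. The windows of Timp2 and Timp3 held 1 E-box and 1 GC box each, and none of the 5 windows held the AP-1 letters. The motifs do not overlap one another in the windows shown. These matches describe letters and do not show that a factor binds.

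**Figure D1:**
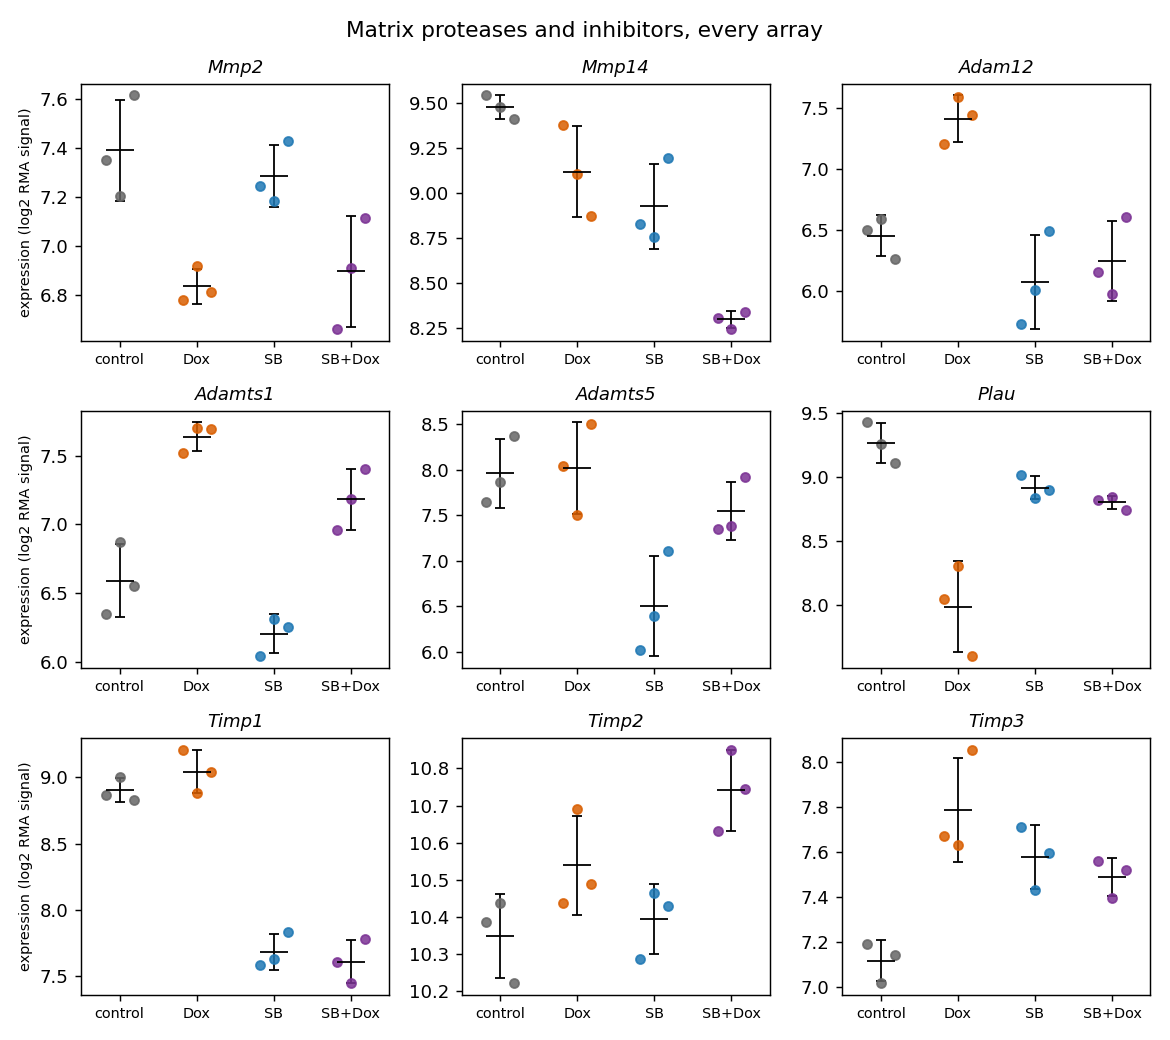
Expression of the 9 genes (log2 RMA signal, vertical axes scaled per gene and not starting at 0) in control, Dox, SB and SB+Dox; each point is an array, the bar is the mean and the whisker the SD of 3 arrays. Timp1 splits by inhibitor (7.45 to 7.84 with it, 8.83 to 9.21 without), Adamts1 is highest in Dox, and Plau is lowest in Dox.

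Mmp14, the membrane-anchored collagenase, fell with the inhibitor and was lowest when both agents were present. It measured 9.54, 9.48 and 9.41 in the 3 control arrays and 9.38, 9.11 and 8.87 in Dox. With the inhibitor it measured 8.83, 8.75 and 9.19 in SB and 8.30, 8.24 and 8.34 in SB+Dox. All 3 SB+Dox arrays lay below the other 9 arrays, and all 3 control arrays lay above them, while Dox and SB overlapped. SB lay 1.47-fold below control (change -0.55, SE 0.13, adjusted p = 0.0199) and SB+Dox 1.77-fold below Dox (-0.82, adjusted p = 7.28e-04). SB+Dox also lay 1.55-fold below SB (-0.63, adjusted p = 0.00853) and 2.27-fold below control (-1.18, adjusted p = 9.85e-05). The Dox change without inhibitor was -0.36 (adjusted p = 0.173), and the interaction, which subtracts the doxycycline change without inhibitor from the one with it, was -0.27 (95% interval -0.67 to 0.13). The SB against control call was lost without control replicates 1 or 2 (adjusted p = 0.077 and 0.0604) or SB replicates 1 or 2 (0.0775 and 0.107), and when all 35557 clusters were tested (0.0684).

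Mmp2, the secreted gelatinase whose precursor the Mmp14 product activates, was lower with doxycycline and showed no detectable change with the inhibitor. It measured 7.35, 7.21 and 7.61 in control, 7.24, 7.18 and 7.43 in SB, 6.78, 6.92 and 6.81 in Dox, and 6.66, 6.91 and 7.12 in SB+Dox. The 6 arrays with doxycycline lay below the 6 without it. It was 1.47-fold lower in Dox than in control (-0.55, SE 0.13, adjusted p = 0.0177), and SB+Dox lay 1.41-fold below control (-0.49, adjusted p = 0.0365). In SB+Dox against SB the change of -0.39 had adjusted p = 0.087. It had 0.0397 in the fit blocked on replicate number, a pairing that the labels do not state. The inhibitor changed it by -0.10 without doxycycline (95% interval -0.38 to 0.17) and by 0.06 with it (-0.21 to 0.33). Leaving out control replicates 1 or 3 (adjusted p = 0.0502 and 0.0816) or Dox replicates 1 or 3 (0.0663 and 0.0706) ended the Dox against control call, as did a test of all clusters (0.0643). The SB+Dox against control call was lost without control replicate 1 or 3 or SB+Dox replicate 1 or 2 (adjusted p from 0.088 to 0.163), with arrays centred on their medians (0.06), with all clusters tested (0.103) and in a fit of those groups alone (0.0765).

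Adam12, which encodes a membrane metalloproteinase linked to myoblast fusion, rose with doxycycline in cells without SB203580. It measured 6.50, 6.59 and 6.27 in control and 7.20, 7.59 and 7.44 in Dox. With the inhibitor it measured 5.73, 6.01 and 6.49 in SB and 6.16, 5.98 and 6.61 in SB+Dox. The 3 Dox arrays lay above the other 9, which overlapped across groups. It was 1.94-fold higher in Dox than in control (0.96, SE 0.19, adjusted p = 0.00579) and in SB+Dox it lay 2.24-fold below Dox (-1.16, adjusted p = 7.55e-04). With the inhibitor present the doxycycline change was 0.17 (adjusted p = 0.635). The difference between the doxycycline changes was -0.78 (SE 0.26, 95% interval -1.35 to -0.22) and did not pass after adjustment (adjusted p = 0.229). In SB against control the change was -0.38 (adjusted p = 0.327).

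Adamts1, a secreted protease that cuts the proteoglycans aggrecan and versican, rose with doxycycline both without and with the inhibitor. It measured 6.35, 6.87 and 6.55 in control and 7.52, 7.70 and 7.70 in Dox. With the inhibitor it measured 6.04, 6.31 and 6.25 in SB and 6.96, 7.19 and 7.41 in SB+Dox. The groups were ordered SB, control, SB+Dox and Dox, and no neighbours in that order overlapped. Adamts1 was 2.07-fold higher in Dox than in control (1.05, SE 0.14, adjusted p = 3.64e-04) and higher in SB+Dox than in SB by 1.98-fold (0.98, adjusted p = 8.26e-04). The difference between these changes was -0.07 (95% interval -0.49 to 0.36, adjusted p = 0.926). It was higher in SB+Dox than in control by 1.51-fold (0.59, adjusted p = 0.022), which no longer passed without control replicate 1 (0.113), control replicate 3 (0.0759), SB+Dox replicate 2 (0.0742) or SB+Dox replicate 3 (0.113), with all clusters tested (0.0774) and in a fit of those groups alone (0.0509). The inhibitor changes of -0.39 without doxycycline (adjusted p = 0.138) and -0.46 with it (adjusted p = 0.0522) did not pass, and the latter passed under 10 of 22 other settings, among them without control replicate 1 (0.0411), control replicate 2 (0.0302) or SB+Dox replicate 3 (0.0281).

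Adamts5, a neighbour of Adamts1 in the gene table and another proteoglycan-cutting enzyme, fell with the inhibitor in cells without doxycycline and was higher in SB+Dox than in SB. It measured 7.64, 7.86 and 8.38 in control, 8.04, 7.50 and 8.51 in Dox, 6.02, 6.40 and 7.10 in SB, and 7.36, 7.38 and 7.92 in SB+Dox. All 3 SB arrays lay below the other 9, and the other groups overlapped. It was lower in SB than in control by 2.74-fold (-1.45, SE 0.28, adjusted p = 0.00539) and higher in SB+Dox than in SB by 2.06-fold (1.05, SE 0.28, adjusted p = 0.0352). Between SB+Dox and Dox, the other comparison of the inhibitor, the change was -0.47 (95% interval -1.07 to 0.13, adjusted p = 0.393) and the arrays overlapped. Without the inhibitor the doxycycline change was 0.06 (95% interval -0.54 to 0.66). The interaction was 0.99 (95% interval 0.14 to 1.84, adjusted p = 0.339). The spread of Adamts5 was the widest of the 9 genes, with an SD of 0.55 in SB. The SB+Dox against SB call was lost without SB replicate 1 (adjusted p = 0.169), SB replicate 2 (0.123), SB+Dox replicate 1 (0.0525), SB+Dox replicate 2 (0.0613) or SB+Dox replicate 3 (0.171), after quantile normalisation (0.0503) and with all clusters tested (0.12).

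Plau, the urokinase gene, fell with doxycycline in cells without the inhibitor. It measured 9.43, 9.26 and 9.11 in control and 8.05, 8.31 and 7.60 in Dox. With the inhibitor it measured 9.02, 8.84 and 8.90 in SB and 8.82, 8.84 and 8.75 in SB+Dox. The 3 Dox arrays lay below the other 9, and SB and SB+Dox overlapped. Plau was 2.43-fold lower in Dox than in control (-1.28, SE 0.14, adjusted p = 1.23e-04) and in SB+Dox it lay 1.76-fold above Dox (0.82, adjusted p = 0.00148). With the inhibitor the doxycycline change was -0.12 (95% interval -0.42 to 0.19). The interaction was 1.17 (SE 0.20, adjusted p = 0.0194). Leaving out control replicate 1 (adjusted p = 0.0567), SB replicate 2 (0.0678) or SB+Dox replicate 3 (0.0516) ended that call, as did testing all clusters (0.123). The changes in SB against control (-0.35, adjusted p = 0.208) and in SB+Dox against control (-0.46, adjusted p = 0.0838) did not pass, and the latter passed under 6 of 22 other settings, among them without Dox replicate 2 (0.0422) or Dox replicate 3 (0.0209).

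Timp1, a secreted inhibitor of most matrix metalloproteinases, fell with SB203580 whether or not doxycycline was present. It measured 8.87, 9.0 and 8.83 in control and 9.21, 8.88 and 9.04 in Dox. With the inhibitor it measured 7.58, 7.63 and 7.84 in SB and 7.60, 7.45 and 7.78 in SB+Dox. The 6 arrays with inhibitor lay below the 6 without it, and the groups with and without doxycycline overlapped on either side. SB lay 2.33-fold below control (-1.22, SE 0.11, adjusted p = 2.00e-05) and SB+Dox 2.70-fold below Dox (-1.43, adjusted p = 1.56e-06). The doxycycline changes were 0.14 without the inhibitor (95% interval -0.10 to 0.39) and -0.07 with it (-0.32 to 0.17). SB+Dox stayed 2.45-fold below control (-1.29, adjusted p = 1.44e-05), and all 3 Timp1 calls held under the 22 alternatives.

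Timp2, which blocks Mmp2 and also takes part in its activation, moved least. It measured 10.39, 10.44 and 10.22 in control, 10.44, 10.69 and 10.49 in Dox, 10.29, 10.46 and 10.43 in SB, and 10.63, 10.85 and 10.74 in SB+Dox. Neighbouring groups in the order control, SB, Dox and SB+Dox overlapped. Timp2 was higher in SB+Dox than in control by 1.31-fold (0.39, SE 0.10, adjusted p = 0.0367), and the call was lost without any control replicate (adjusted p from 0.0567 to 0.14), SB+Dox replicate 2 (0.161) or SB+Dox replicate 3 (0.109), with all clusters tested (0.0858) and in a fit of those groups alone (0.0511). The change of 0.35 from SB to SB+Dox had adjusted p = 0.0538, or 0.0248 in the fit blocked on replicate, and it passed under 8 of 22 other settings, among them without control replicate 3 (0.046) or Dox replicate 2 (0.0488). The inhibitor change without doxycycline was 0.05 (95% interval -0.17 to 0.26).

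Timp3, the inhibitor that binds to the matrix and also blocks ADAM and ADAMTS enzymes, was lowest in control. It measured 7.19, 7.02 and 7.14 in control and 7.67, 7.63 and 8.05 in Dox. With the inhibitor it measured 7.71, 7.43 and 7.60 in SB and 7.56, 7.39 and 7.52 in SB+Dox. The 3 control arrays lay below the other 9, whose groups overlapped in order. Timp3 was 1.59-fold higher in Dox than in control (0.67, SE 0.12, adjusted p = 0.00281) and 1.38-fold higher in SB than in control (0.46, adjusted p = 0.0293). The interaction was -0.76 (SE 0.17, adjusted p = 0.04999), at the edge of the threshold. That call was lost without any 1 of the 12 arrays (adjusted p from 0.0531 to 0.121), with arrays centred on their medians (0.0685), after quantile normalisation (0.0737) and with all clusters tested (0.174). The SB against control call was lost without any control replicate (0.0584 to 0.12), SB replicate 1 (0.116) or SB replicate 3 (0.0551), with arrays centred on their medians (0.058) and with all clusters tested (0.0833). The change of 0.37 from control to SB+Dox had adjusted p = 0.0927, and 0.0446 without Dox replicate 3.

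**Figure D2:**
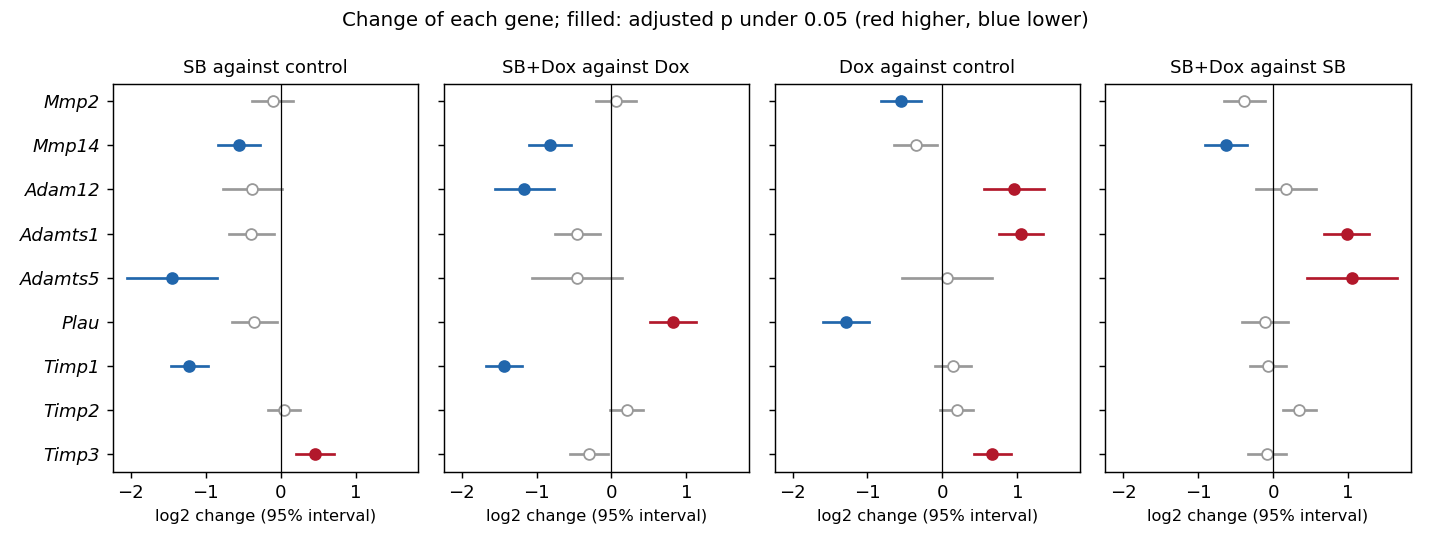
Log2 change of each of the 9 genes in 4 comparisons (horizontal axis), with its 95% interval; filled points have an adjusted p under 0.05. Mmp14 and Timp1 are lower in both panels that test the inhibitor (the first 2), and Adamts1 is higher in both that test doxycycline.

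Counted by comparison, 4 of the 9 genes were called in SB against control, where 6.38% of all clusters were called (2.51% higher, 3.87% lower): Mmp14, Adamts5 and Timp1 fell and Timp3 rose. With arrays centred on their medians the split was 3 lower and 0 higher. Against Dox, SB+Dox had 10.4% of clusters called (6.97% higher, 3.43% lower), and 3 of the 9 fell (Mmp14, Adam12 and Timp1) and 1 rose (Plau). In Dox against control, with 5.31% called (1.43% higher, 3.88% lower), 3 rose (Adam12, Adamts1 and Timp3) and 2 fell (Mmp2 and Plau). Against SB, SB+Dox had 7.11% called (4.4% higher, 2.71% lower), and 2 of the 9 rose (Adamts1 and Adamts5) and 1 fell (Mmp14). With a block for the replicate number, a pairing that the labels do not state, 5 genes passed. The others were Mmp2 (lower) and Timp2 (higher). Against control, SB+Dox had 5.26% called (2.84% higher, 2.42% lower), and 3 of the 9 fell (Mmp2, Mmp14 and Timp1) and 2 rose (Timp2 and Adamts1). The interaction called 2 genes, Plau and Timp3, where 0.895% of clusters were called (0.725% higher, 0.17% lower). The 3 arrays of each group did not overlap for 6 of the 9 genes in SB against control (20% of all clusters), 7 in Dox against control (20%), 6 in SB+Dox against Dox (29.1%), 5 in SB+Dox against SB (25%) and 7 in SB+Dox against control (23.2%). These comparisons share arrays, so their calls are not independent of each other. The 9 genes lay between percentiles 68.6 and 99.2 of mean level, and brighter clusters were called more often. With those under the 50th percentile left out, 1695 of 10895 were called in SB against control and 2541 in SB+Dox against Dox. Dox against control had 1276, SB+Dox against SB 1977, SB+Dox against control 1440 and the interaction 301. The 9 genes were chosen with earlier results of these data known, so these counts are no test of them.

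The median change of the 9 genes was -0.38 in SB against control, -0.46 in SB+Dox against Dox, 0.14 in Dox against control and -0.07 in SB+Dox against SB. The medians over all clusters were 0.03, -0.03, 0.01 and -0.04. Without SB replicate 3 the counts were 3 in SB against control, where Timp3 was no longer called, and 3 in SB+Dox against SB. Without control replicate 1, control replicate 2 or SB replicate 1 the count in SB against control was 2, Adamts5 and Timp1. For SB+Dox against control the count was 2 (Mmp14 and Timp1) without control replicate 1, control replicate 3 or SB+Dox replicate 2, and 3 without SB+Dox replicate 3. For SB+Dox against SB it was 2 (Mmp14 and Adamts1) without SB replicate 1 or 2 or any SB+Dox replicate. In the interaction limma called 0 (4 at an unadjusted p under 0.05 with all arrays) without control replicate 1, SB replicate 2 or SB+Dox replicate 3, and 1 (Plau) without any other array.

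In the gene table Timp1 overlaps Syn1, Timp3 overlaps Syn3 and Timp2 overlaps Cep295nl, and probe positions were not used here. Adam12, Mmp2 and Adamts5 overlap only predicted or otherwise uncharacterised gene models. Where Timp1 fell in SB, the Syn1 cluster differed from control by -0.21 (adjusted p = 0.495). In SB+Dox against Dox, where Timp1 also fell, the Syn1 cluster changed by 0.44 (adjusted p = 0.0535). It was called higher in SB+Dox against SB (0.51, adjusted p = 0.0348), where Timp1 was not called. The Syn3 cluster changed by 0.05 in Dox against control (adjusted p = 0.923), where Timp3 rose. The Cep295nl cluster changed by 0.16 in SB+Dox against control (adjusted p = 0.653).

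The rest of the protease system was read from 6 lists with 94 genes, of which 90 were measured. Of the 90, 8 fell and 1 rose in SB against control, 9 rose and 13 fell in SB+Dox against Dox, 3 rose and 10 fell in Dox against control, and 4 rose and 3 fell in SB+Dox against SB. As shares these are 10.0%, 24.4%, 14.4% and 7.78%, beside the 6.38%, 10.4%, 5.31% and 7.11% of all clusters. The list medians over the 90 genes were 0.00, -0.05, -0.02 and -0.11 in the same order.

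**Figure D3:**
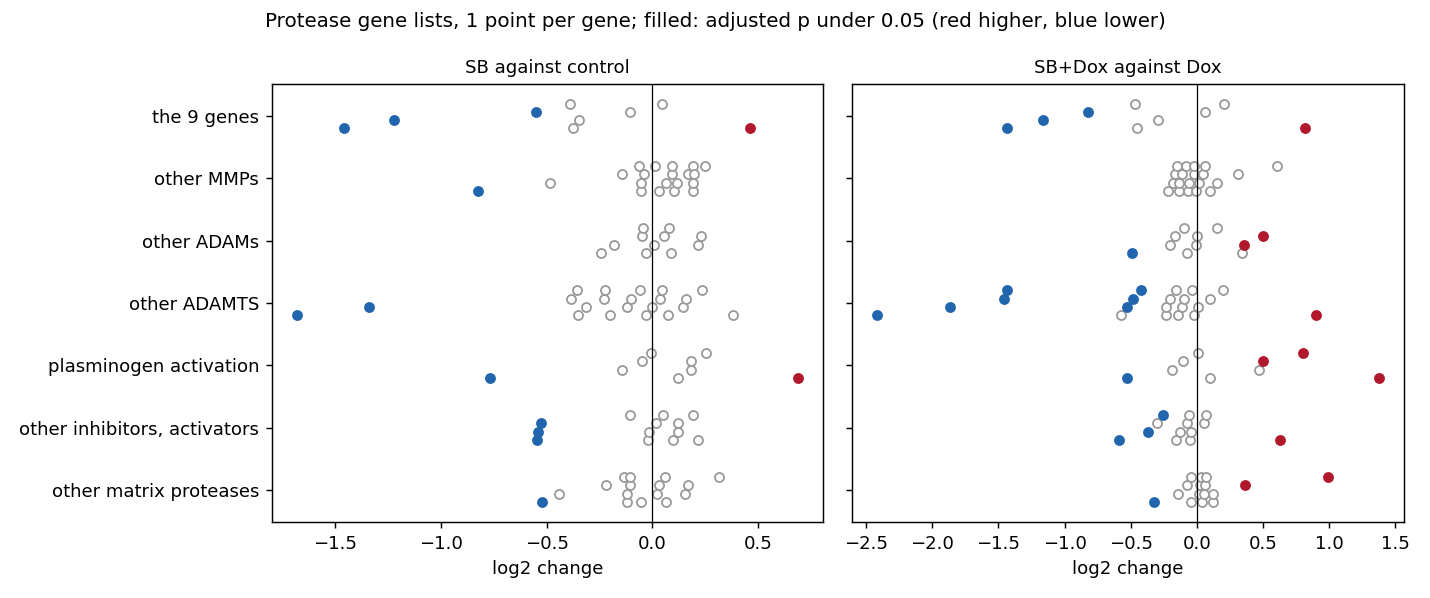
Log2 change (horizontal axis) of the 9 genes and of the 90 measured genes in 6 other lists, 1 point per gene, in SB against control and in SB+Dox against Dox; filled points have an adjusted p under 0.05. Most genes of the other lists lie near 0, and the lowest points in both panels are ADAMTS family genes (down to -1.68 and -2.42).

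Other matrix metalloproteinases had 1 of 20 called in SB against control and 1 in SB+Dox against SB. That is 5% in each, beside 6.38% and 7.11% of all clusters. Mmp19 was lower in SB than in control by 1.77-fold (-0.82, adjusted p = 0.0277), which did not pass without control replicate 3 or any SB replicate (adjusted p from 0.0501 to 0.0965), in a fit of those groups alone (0.0551) and with all clusters tested (0.102). Mmp19 was dim, with a mean of 4.30 in SB, below every array median, and 4.81, 4.82 and 5.74 in the control arrays. Mmp16, a membrane-anchored relative of Mmp14, was lower in SB+Dox than in SB by 1.57-fold (-0.65, adjusted p = 0.0014). Of 11 other ADAM genes limma called 0 in SB against control (2 at an unadjusted p under 0.05) and 0 in SB+Dox against SB (1 at an unadjusted p under 0.05), and the largest change in SB against control was that of Adam9 (-0.25, adjusted p = 0.217). In the comparisons where Adam12 was called, 2 of the 11 were called in Dox against control, beside 5.31% of all clusters. Adam8 was higher (0.57, adjusted p = 0.0066) and Adam19 lower (-0.66, adjusted p = 0.00353). In SB+Dox against Dox 3 of the 11 were called, beside 10.4% of all clusters. Adam8 was lower (-0.49, adjusted p = 0.0105) and Adam15 and Adam22 were higher (0.50 and 0.35, adjusted p = 0.00174 and 0.0368). Adam22 was dim, with means of 3.32 in Dox and 3.68 in SB+Dox, below every array median. Adam8, Adam15, Adam19 and Adam22 were named after their values were seen.

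The largest falls among the 90 genes in SB against control and in SB+Dox against Dox were those of ADAMTS family genes. Of its 21 other measured genes, 2 fell in SB against control, where 3.87% of all clusters were called lower. In SB+Dox against Dox 7 fell and 1 rose, beside 3.43% and 6.97% of all clusters. Adamts16 measured 7.08 ± 0.15 (SD, n = 3) in control, 5.40 ± 0.09 in SB, 6.67 ± 0.12 in Dox and 4.81 ± 0.18 in SB+Dox. It was lower in SB than in control by 3.2-fold (-1.68, adjusted p = 1.96e-06) and lower in SB+Dox than in SB by 1.51-fold (-0.59, adjusted p = 0.00518). Adamts6 was lower in SB than in control by 2.53-fold (-1.34, adjusted p = 0.001). The means of Adamts6 in SB (4.63) and of Adamts16 in SB+Dox were dim, below every array median. From SB to SB+Dox, Adamts14, an enzyme that trims procollagen, was 1.91-fold higher (0.93, adjusted p = 0.00352). Adamtsl4, an ADAMTS-like protein without protease activity, was 1.41-fold higher there (0.50, adjusted p = 0.0105), a call lost without SB+Dox replicate 3 (0.0567).

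Of 9 measured plasminogen activation genes, 4 fell, 0 rose and 5 were not called in Dox against control, where Plau fell and 3.88% of all clusters were called lower: Plat, the tissue plasminogen activator gene (-0.72, adjusted p = 0.00727), Plaur, the urokinase receptor gene (-0.71, adjusted p = 0.00241), and Anxa2 and S100a10, whose products bind plasminogen at the cell surface (-0.73 and -0.69, adjusted p = 2.60e-04 and 0.0114). Plaur, Anxa2 and S100a10 were chosen for naming after their values were seen. In SB against control Plat was 1.61-fold higher (0.69, adjusted p = 0.00972), a call just lost without SB replicate 1 (adjusted p = 0.05). Lrp1, an endocytic receptor that clears protease and inhibitor complexes, was 1.70-fold lower there (-0.77, adjusted p = 0.00249).

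**Figure D4:**
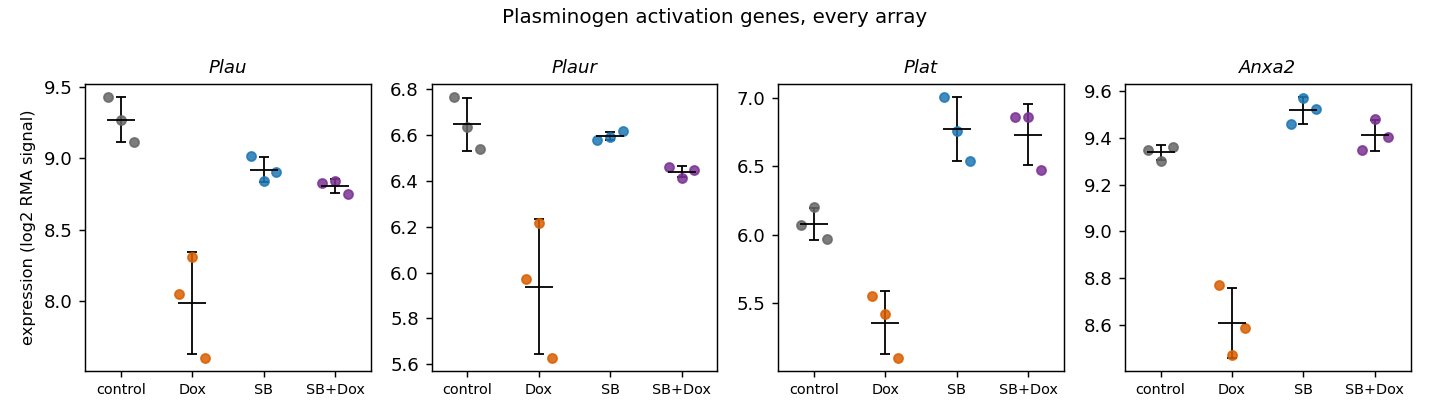
Expression (log2 RMA signal, vertical axes scaled per gene and not starting at 0) of Plau, Plaur, Plat and Anxa2 on every array; bars are means and whiskers SDs of 3 arrays. On each gene the 3 Dox arrays lie below the other 9, and Plat is higher in both inhibitor groups (6.47 to 7.01) than in control (5.97 to 6.20).

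Among the other inhibitors and activators, 3 of 13 fell in SB against control, where 3.87% of all clusters were called lower. Furin, a convertase that activates precursors of membrane metalloproteinases, was 1.46-fold lower (-0.55, adjusted p = 0.0267), and the call was lost without control replicate 1 or 2 or any SB replicate (adjusted p from 0.0566 to 0.121) and with all clusters tested (0.0861). Spock2, a secreted proteoglycan, and Pcolce2, an enhancer of procollagen processing, were 1.45-fold and 1.44-fold lower (adjusted p = 6.51e-04 and 0.00354). Of 16 other matrix-directed proteases and their inhibitor Cst3, Prss23, a secreted serine protease, was lower in SB than in control by 1.44-fold (-0.52, adjusted p = 0.00871) and higher in SB+Dox than in SB by 1.41-fold (0.50, adjusted p = 0.0116), the latter lost without SB replicate 1 (0.0568) or SB+Dox replicate 3 (0.0746). The lysosomal protease gene Ctsl was higher in SB+Dox than in SB by 1.65-fold (0.72, adjusted p = 0.00457). Bmp1, the main procollagen C-proteinase gene, was 1.30-fold lower there (-0.38, adjusted p = 0.0302), a call lost without SB replicate 2 or 3 or SB+Dox replicate 1 or 2 (adjusted p from 0.0651 to 0.127), with arrays centred on their medians (0.101), in a fit of those groups alone (0.0925) and with all clusters tested (0.0658).

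For the 6 genes whose group means spanned at least 1 on the log2 scale, the 3 genes with the most similar pattern were found as those with the smallest root-mean-square (RMS) difference over the 12 arrays, each gene centred on its own mean. For Plau they were Spry2, a feedback inhibitor of receptor tyrosine kinase signalling (RMS 0.19), Cbr2 (0.20) and Plaur, the receptor of its own product (0.21), against a median of 0.51 over the 17323 genes compared. For Timp1 they were Zfp36l1, an RNA-binding protein, Fn1, the gene of the matrix protein fibronectin, and Creb3l1, a transcription factor (RMS 0.17, 0.18 and 0.20). For Mmp14 they were A4galt, the small matrix proteoglycan gene Bgn and Ccdc80 (RMS 0.13, 0.15 and 0.15). For Adamts1 they were Chrnb1, a subunit of the muscle acetylcholine receptor, Adssl1, the muscle adenylosuccinate synthase, and Gys1, the muscle glycogen synthase (RMS 0.16, 0.17 and 0.17). Those of Adam12 were Nucb2, Fchsd2 and Pcdh1 (RMS 0.14, 0.19 and 0.20). Adamts5 had Mthfd2, an enzyme of mitochondrial folate metabolism, Phf10 and Cpne8 (RMS 0.22, 0.26 and 0.27). Among the 9 genes themselves the closest pair was Timp2 and Timp3 (RMS 0.30) and the farthest was Adamts1 and Plau (1.00). Values were not scaled, so genes that move little lie close to each other. The group means of Timp2 and Timp3 spanned only 0.39 and 0.67. Their changes in SB+Dox against Dox were 0.20 and -0.30, neither of them called.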

How the data were processed

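RNA of 12 C2i-Myog samples was hybridised to Affymetrix whole-transcript arrays. The deposited values are log2 signals that the authors made with RMA in Affymetrix Expression Console, per the submitters' processing notes; versions are not given in the sources used here. They ran from 0.50 to 13.17 over 35557 clusters. Arrays have no depth, no background level was used, and 3 arrays per group limit the precision.

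Clusters were named from GEO's platform annotation: 21789 had 1 symbol and were tested, 1621 had several and 12147 had none. All 12 arrays entered 1 limma fit with a mean for each group (limma 3.58.1, R 4.3.3, lmFit, contrasts, eBayes; 8 residual and 6.56 prior degrees of freedom). The members and lists were chosen with earlier results of these data known. Named genes were the 9 members, up to 3 called genes with the largest change per list in SB against control and in SB+Dox against SB (the largest change in SB against control for a list with none called in either), and 3 nearest patterns per member. On simulated arrays for SB against control (21789 clusters, 200 changed), 56.7% of 1.5-fold, 95.5% of 2-fold and 100% of 4-fold changes were recovered, with 8 false calls. Each fold rested on 66 or 67 genes. The data had 1390 clusters called in that comparison, so these shares need not hold for them.

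The labels number the replicates and state no pairing, so a pairing was read from the arrays. Deviations from group means correlated by number between SB and SB+Dox at 0.44, 0.19 and 0.49, all over 0.1. No other pair of groups passed 0.1 on every number, although each Dox array correlated best with the SB+Dox array of its own number (0.09, 0.28 and 0.15). With 3 arrays per group this does not settle which groups were paired. The block is given beside SB+Dox against SB. Alternatives were this block, median centring, quantile normalisation, filters at the 25th and 50th percentile, all clusters, eBayes with trend or robust, array weights, the compared groups alone and leaving out each array.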

Additional observations from a re-analysis of the deposited data

Results flagged for a closer look

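Among the 9 genes and the 90 others, 5 had a doxycycline change that differed with and without the inhibitor by the limma interaction test. They were 2 of the 9 and 3 of the 90 (3.33%), beside 0.895% of all clusters. With clusters under the 50th percentile left out, 301 of 10895 clusters were called. Plau changed by -1.28 without the inhibitor and by -0.12 with it, a difference of 1.17 (adjusted p = 0.0194), lost without control replicate 1, SB replicate 2 or SB+Dox replicate 3 (0.0516 to 0.0678) and with all clusters tested (0.123). Timp3 changed by 0.67 and -0.09, a difference of -0.76 (adjusted p = 0.04999), a call lost without any single array, with arrays centred on their medians (0.0685), after quantile normalisation (0.0737) and with all clusters tested (0.174). Adamtsl2, an ADAMTS-like matrix protein gene, measured 5.61 ± 0.19 (SD, n = 3) in control, 5.25 ± 0.27 in SB, 7.57 ± 0.48 in Dox and 5.15 ± 0.11 in SB+Dox, a difference of -2.06 (adjusted p = 0.00673). That call held without each of the 12 arrays (adjusted p at most 0.0274) and was lost with all clusters tested (0.0835). Adamts14 measured 7.39 ± 0.25 in control, 7.0 ± 0.13 in SB, 7.04 ± 0.26 in Dox and 7.94 ± 0.31 in SB+Dox, a difference of 1.28 (adjusted p = 0.0251). It was lost without control replicate 3, Dox replicate 1, SB replicates 1 or 2, or SB+Dox replicates 2 or 3 (adjusted p from 0.0513 to 0.0855), after quantile normalisation (0.0606) and with all clusters tested (0.136). Anxa2 had a difference of 0.62 (adjusted p = 0.0431), lost without every array except Dox replicate 1 and SB replicate 3 (0.0731 to 0.112), after quantile normalisation (0.0918) and with all clusters tested (0.136). Adamtsl2 and Anxa2 were named after their values were seen.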

How the results depend on the processing

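Over 1179 alternative values of the 9 genes' changes, 0 reversed, 63 lost a call and 36 gained one. Over 2221 values of the other named genes, 0 reversed, 99 lost a call and 28 gained one. Counts of the 9 genes that moved by over 1.5 times were as follows. In SB against control 4 became 2 with all clusters tested and ranged from 2 to 4 when arrays were left out. In SB+Dox against control 5 became 2 with all clusters and ranged from 2 to 7. In SB+Dox against SB 3 became 5 with the replicate block, with clusters under the 50th percentile left out and with array weights, and ranged from 2 to 4 when arrays were left out. In the interaction 2 became 1 with median centring and quantile normalisation and 0 in limma with all clusters (4 at an unadjusted p under 0.05 in the fit as reported), and ranged from 0 to 1. Among the 90 other genes, array weights gave 14 in place of 9 in SB against control and 17 in place of 7 in SB+Dox against SB, where the 50th percentile filter and the eBayes trend gave 11. In the interaction 3 became 6 with the replicate block, 1 after quantile normalisation, 0 with all clusters and 5 with array weights. With arrays left out these counts ranged from 7 to 9 in SB against control, 6 to 11 in SB+Dox against control, 14 to 23 in SB+Dox against Dox, 5 to 12 in SB+Dox against SB and 1 to 3 in the interaction. Outside SB+Dox against SB, the replicate block also called Adamts1 in SB against control (adjusted p = 0.033) and SB+Dox against Dox (0.0094). It also called Timp3 and Plau in SB+Dox against control (0.0435 and 0.0405) and Adamts5 in the interaction (0.0267). Of the Dox arrays, 3 of 3 correlated best with the SB+Dox array of their own number. Testing all clusters adds 13768 to the number tested. For the other changes the cause was not tested. No alternative cluster was tried, because each of the 9 genes had 1 among the clusters with 1 symbol, and a fit of the compared groups alone cannot give the interaction.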
